A study of Bos taurus with 6 samples.

Results

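Circular RNAs (circRNAs) are closed loops made when the end of an exon is joined back to the start of the same or an earlier exon, a step called back-splicing. This report describes 8 genes whose protein products are known to help or hinder that step: QKI, MBNL1, HNRNPL and ESRP1, which bind the introns around an exon, ADAR, ADARB1 and DHX9, which act on double-stranded RNA, and ILF2, a subunit of complexes that bind double-stranded RNA. They were chosen by gene symbol, and each symbol matched 1 of the 47249 entries of the deposited table of genes. The libraries were made from testes of untreated Wandong cattle, after removal of ribosomal RNA. They came from 3 immature calves aged 3 ± 0.24 months and 3 andrologically mature bulls aged 3 ± 0.014 years, with 1 library per animal; calf 3 below is the calf library of that number. The values are FPKM, which count the sequenced fragments of a gene relative to its length and to the depth of the library, so the genes can be set side by side.

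Back-splicing competes with the usual joining of exons in order, and it is favoured when the introns before and after an exon are brought together. This can happen when repeats in both introns pair into double-stranded RNA, or when proteins bound to both introns meet. ADAR enzymes change adenosine to inosine in paired RNA and the helicase DHX9 unwinds it, so both are known to hinder loops that depend on pairing. QKI and the muscleblind protein MBNL1 are known to bind introns and to help form loops. In the testis, the tubules of a calf hold mostly Sertoli cells and early germ cells, while those of a mature bull are filled with meiotic and haploid germ cells. QKI is also the source gene of a circRNA that the study measured by RT-qPCR. The primers for it are printed here because they show what sets a loop apart from the FPKM values below: they point away from each other on the linear RNA and give a product only across a back-splice junction, while an FPKM counts linear and circular RNA of a gene together.
QKI circRNA forward primer: tttaattttgttgggagaatccttggac
QKI circRNA reverse primer: tccgtactctgctaattctgggcaaact
Both are 28 bases long and are given from 5′ to 3′. Loops themselves were not analysed here.

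The library labelled calf 3 lacked most of the Sertoli and Leydig cell genes examined. The results on the 8 regulators, on their transcripts and on other called genes are therefore given with and without it. The summed FPKM of 8 Sertoli cell genes was 2693 to 2821 in calf 1 and calf 2 and 380 to 398 in the bulls, but 438 in calf 3, of which CLU, a gene of many cell types, made 422.5. AMH was at 0.340 and INHA at 0.766 FPKM in calf 3, and FSHR, WT1 and GATA4 were listed at 0. The summed FPKM of 6 Leydig cell genes was 1141 to 1406 in calf 1 and calf 2, 1465 to 2738 in the bulls and 0.502 in calf 3, where CYP11A1 and CYP17A1 were listed at 0. In calf 3, 14 of the 16 Sertoli and Leydig entries lay below 0.1 times of the mean of calf 1 and calf 2. SOX9 was at 13.7 FPKM there, against 21.9 and 25.6 in calf 1 and calf 2. The 6 spermatogonia genes were mixed: they summed to 225 in calf 3, of which UCHL1 made 201, against 59.8 to 66.3 in calf 1 and calf 2. GFRA1 and ZBTB16 were also highest in calf 3, while DDX4 (0.0152), NANOS3 (0.760) and NANOS2 (listed at 0) were lowest there. All 19 marker genes of oligodendrocytes, astrocytes and neurons were highest in calf 3: the 8 oligodendrocyte genes summed to 13187 there, against 20.5 to 29.4 in the other 5 libraries. In the bulls, 6 spermatid genes summed to 13117 to 14825, against 0.810 to 2.60 in the libraries of calves. In such bulk samples, fewer cells of a type and less RNA per cell cannot be told apart. The part of these cell types in the results below was not tested.

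Among the 8 genes, the levels in the bulls ran from ILF2 (75.98 to 83.9 FPKM) and QKI (72.6 to 74.1) down through HNRNPL (40.0 to 46.9), DHX9 (38.2 to 43.8), MBNL1 (10.5 to 12.3), ADAR (6.34 to 7.77) and ADARB1 (2.86 to 3.33) to ESRP1 (0.430 to 0.732). Of the neighbours in this order, only HNRNPL and DHX9 overlapped. In calf 1 and calf 2, QKI stood first at 62.2 and 71.4 FPKM. HNRNPL (47.4 and 48.4), DHX9 (44.3 and 51.4) and ILF2 (42.2 and 46.0) followed close together, and the values of DHX9 overlapped those of both its neighbours. ADAR (17.8 and 22.4) and MBNL1 (10.8 and 21.5) overlapped as well, and ADARB1 (4.48 and 3.42) and ESRP1 (0.946 and 1.18) were lowest, as in the bulls. The order of the genes therefore differed mainly in the place of ILF2, which was first in the bulls, and in that of ADAR, which lay at the level of MBNL1 in these calves and below it in every bull.

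**Figure D1:**
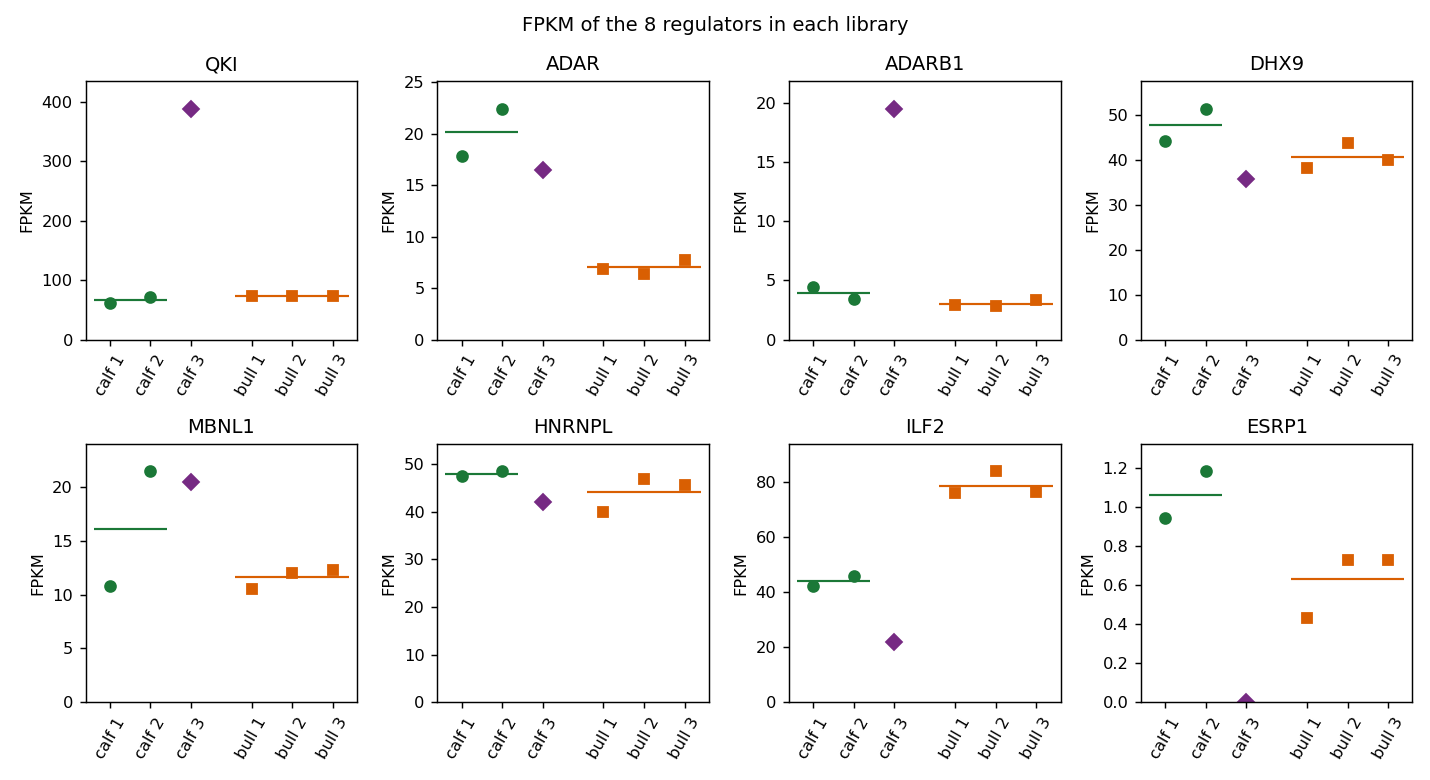
FPKM (vertical axis, from 0, scaled for each gene) of the 8 regulators in each library (horizontal axis); circles are calf 1 and calf 2, the diamond is calf 3, squares are bulls, and lines are the means of calf 1 with calf 2 and of the bulls. ADAR sits between 6.34 and 7.77 in the bulls and between 16.4 and 22.4 in the calves, while QKI reaches 389 and ADARB1 19.5 in calf 3 alone.

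To ask whether these genes differ between the immature and the mature testis, bulls were compared with calves in 1 fit over the 18115 genes that reached 1 FPKM in 3 or more libraries. On the log2(FPKM + 1) scale, a gene had to differ by 1 or more in either direction, with an adjusted p under 0.05, to be called. Of the 8 genes, 7 could be tested: ADAR was called lower and ILF2 higher in bulls, and QKI, MBNL1, HNRNPL, ADARB1 and DHX9 were not called. Among all genes tested, 45.3% were called, 35.7% higher and 9.61% lower in bulls, so 2 of 7 is no larger a share than among genes in general. The median log2 fold change of the 7 genes was −0.51, against 0.43 over all genes tested. Without calf 3, ADAR alone was called among the 7, against 51.5% of all genes (37.9% higher and 13.6% lower), and their median was −0.23 against 0.43. Bulls and calves did not overlap for 3 of the 8 genes, with ADAR and ADARB1 lower and ILF2 higher in every bull. Among all genes tested the groups did not overlap for 67.4%, with 46.1% higher and 21.3% lower in bulls. Without calf 3, 6 of the 7 genes did not overlap, 2 higher (QKI and ILF2) and 4 lower (ADAR, ADARB1, DHX9 and HNRNPL), against 84.4% of all genes, 53.5% higher and 30.9% lower. Of the 14 transcripts of these genes that could be tested, ILF2-201 was called higher and ADAR-201 lower, against 44.2% of the 23212 transcripts tested in all, 34.8% higher and 9.37% lower. Without calf 3, ADAR-201 alone was called, against 49.2%, 36.1% higher and 13.1% lower. The scaling of the libraries matters for these counts. With the upper quartiles made equal, the median of all genes was −0.09 and 48.2% of genes were called, 27.8% higher and 20.3% lower. After quantile normalization it was −0.26, with 46.2% called, 21.1% higher and 25.1% lower. Under both, ADAR and MBNL1 were called lower and ILF2 was not called.

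**Figure D2:**
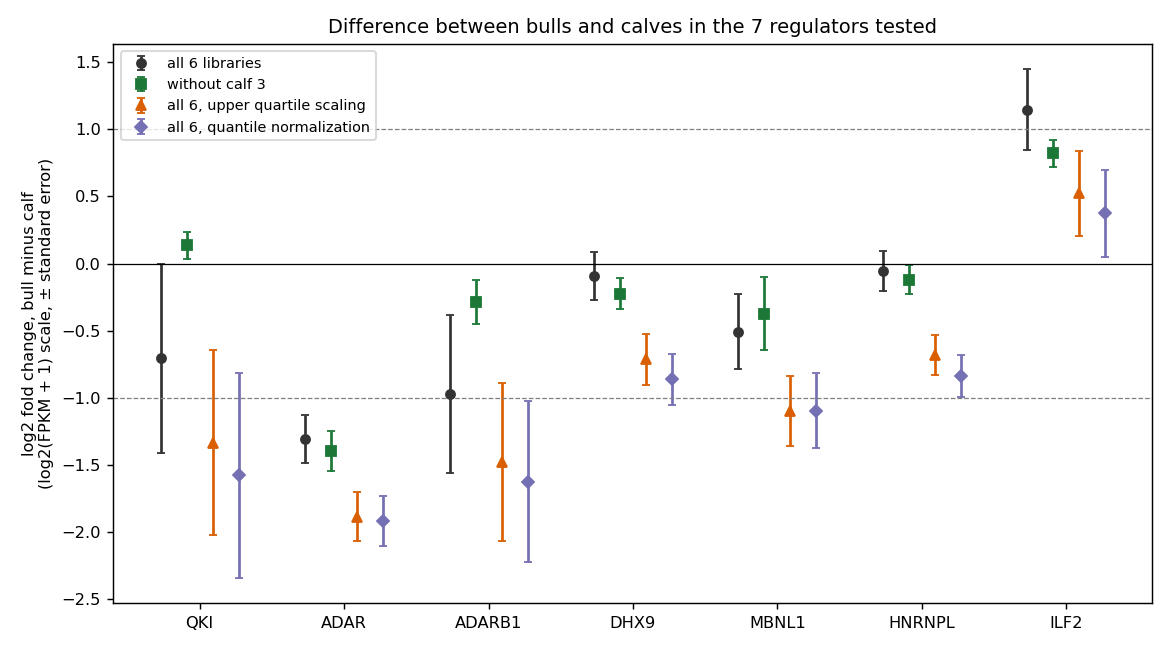
Log2 fold change of bulls against calves (vertical axis, log2(FPKM + 1) scale) for the 7 regulators tested, with standard errors as bars, for all 6 libraries, without calf 3, and under 2 other scalings of all 6 libraries; dashed lines mark the size needed for a call. ADAR lies at or below −1.31 in all 4 series, and QKI moves from −0.71 to 0.14 when calf 3 is left out.

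ADAR encodes the main editing enzyme of double-stranded RNA, with a form that is induced by interferon. Its gene (ENSBTAG00000007519, chromosome 3, 15968147 to 15994363) stood at 17.8, 22.4 and 16.4 FPKM in the calves, in the order of their numbers, and at 6.88, 6.34 and 7.77 in the bulls. All calves lay above all bulls, calf 3 included. On the log2 scale the difference was −1.31 (standard error 0.18, adjusted p = 0.00128, limma), and −1.396 (standard error 0.15, adjusted p = 0.000285) without calf 3. ADAR was called lower in bulls under each of the 14 alternatives computed, between −2.05 and −1.18. Its place among the genes tested moved as well: it ranked above 81.2% to 87.2% of them in the calves and above 48.01% to 53.1% in the bulls. A ratio of 2 genes within a library does not depend on how the library was scaled. The ratio of ADAR to another gene was lower in every bull than in every calf for 67.6% of the 15606 other genes with values above 0 in all libraries, and higher for 3.98% of them. Without calf 3, over 16643 genes, it was lower for 80.0% and higher for 6.70%. For comparison, the ratio of HNRNPL to another gene was lower in every bull for 38.8% and higher for 23.3% (51.8% and 30.5% without calf 3).

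ADAR had 4 entries in the table of transcripts. ADAR-201 (ENSBTAT00000009896) carried most of the level, with 15.9, 19.0 and 13.6 FPKM in the calves and 5.65, 5.58 and 6.91 in the bulls, a log2 fold change of −1.28 (adjusted p = 0.00199), and −1.39 (adjusted p = 0.000788) without calf 3. ADAR-202 also lay lower in every bull, at 0.927, 0.366 and 0.469 against 1.58, 2.19 and 2.07 FPKM. Its log2 fold change of −0.90 (adjusted p = 0.00775), and −0.87 (adjusted p = 0.0134) without calf 3, was under the size needed for a call. At such low FPKM, the 1 added before the logarithm makes a fold change smaller. In FPKM, the mean of the bulls was 0.301 times that of the calves, against 0.373 times for ADAR-201. The third entry, ADAR-203, overlapped between the groups at 0.265 to 0.711 FPKM and was not tested.

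ADARB1, the second active editing enzyme of the family and best known for its work in neurons, had another pattern. Its gene (ENSBTAG00000017486, chromosome 1, 144937738 to 145054384) stood at 4.48, 3.42 and 19.5 FPKM in the calves and at 2.93, 2.86 and 3.33 in the bulls. Calf 3 lay 4.94-fold above the mean of calf 1 and calf 2, and the groups did not overlap with or without it. ADARB1 differed by −0.97 (standard error 0.59, adjusted p = 0.207) and −0.29 (standard error 0.16, adjusted p = 0.151) without calf 3. Without calf 3, it was −0.81 (adjusted p = 0.00477) when upper quartiles were made equal and −0.88 (adjusted p = 0.00358) after quantile normalization. ADARB1 was not called under any of the 14 alternatives. Its ratio to another gene was lower in every bull for 50.2% of genes and higher for 3.68% (53.6% and 22.4% without calf 3). Because ADAR and ADARB1 differed so unequally, the ratio of ADARB1 to ADAR was 0.251 and 0.153 in calf 1 and calf 2 and 0.426 to 0.450 in the bulls, but 1.19 in calf 3. ADARB1-202, its leading annotated transcript, had 1.95, 1.48 and 6.35 FPKM in the calves and 1.02, 0.855 and 1.19 in the bulls (log2 fold change −0.90, adjusted p = 0.125, and −0.42, adjusted p = 0.0609, without calf 3).

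DHX9, the helicase that unwinds paired repeats, differed little in FPKM as deposited, and more under other scalings. Its gene (ENSBTAG00000019821, chromosome 16, 63894365 to 63937888) stood at 44.3, 51.4 and 35.9 FPKM in the calves and at 38.2, 43.8 and 40.1 in the bulls, and the groups overlapped. Its log2 difference was −0.09 (standard error 0.18, adjusted p = 0.690), and −0.23 (standard error 0.11, adjusted p = 0.119) without calf 3. With all libraries it was −0.71 (adjusted p = 0.0183) when upper quartiles were made equal and −0.86 (adjusted p = 0.00962) after quantile normalization. It was called lower under 1 of the 14 alternatives, quantile normalization without calf 3 (−1.03, adjusted p = 0.000195). Its ratio to another gene was lower in every bull for 39.1% and higher for 22.6% (54.4% and 28.2% without calf 3). In contrast to the gene, an entry named DHX9-AS1 was at 1.09, 0.842 and 1.11 FPKM in the bulls and at 0.0322, 0.123 and 0.0799 in the calves, so that it lay higher in every bull. This entry was not tested, because only 2 libraries reached an FPKM of 1, and it was named after its values were seen. Among the antisense entries of other regulators, all untested, ADARB1-AS1 lay higher in every bull, and ADAR-AS1 and MBNL1-AS1 lay lower. DHX9-AS1 shares 2098 bases of span with DHX9-201, which had 37.1 to 43.0 FPKM in the bulls. How these 2 entries were kept apart in the counting is not given in the sources used here.

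QKI encodes a KH-domain protein of the STAR family that is known from myelinating oligodendrocytes, where it is abundant. Its gene (ENSBTAG00000011593, chromosome 9, 98820539 to 98975050) stood at 62.2 FPKM in calf 1 and 71.4 in calf 2, and at 74.1, 73.3 and 72.6 in the bulls. In calf 3 it stood at 389, which is 5.82-fold above the mean of calf 1 and calf 2. With all libraries QKI differed by −0.71 on the log2 scale (standard error 0.71, adjusted p = 0.430). Without calf 3 it was 0.14 (standard error 0.10, adjusted p = 0.250), a change of sign. The sign without calf 3 also depended on the scaling: it was −0.52 (adjusted p = 0.00233) when upper quartiles were made equal and −0.67 (adjusted p = 0.000485) after quantile normalization. With all libraries these scalings gave −1.33 (adjusted p = 0.141) and −1.58 (adjusted p = 0.119), and none of these values made a call. The bulls lay close together, with a mean of 73.4 ± 0.769 FPKM (SD, n = 3). There, QKI ranked above 94.2% to 94.3% of the genes tested, and in calf 1 and calf 2 above 96.6% and 96.8%. The ratio of QKI to HNRNPL was 1.31 and 1.47 in calf 1 and calf 2, 1.56 to 1.85 in the bulls and 9.26 in calf 3. Set against each other gene in turn, QKI was lower in every bull for 42.9% and higher for 5.34%, and without calf 3 for 46.6% and 37.1%. In calf 3, the high level of QKI stood beside the high sums of the oligodendrocyte genes given above, and their part in it was not tested.

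The table of transcripts holds 2 entries for QKI, and their balance differed between the groups although the gene was not called. QKI-202 (ENSBTAT00000054202) and QKI-201 (ENSBTAT00000069603) share the position 98820539 at the lower end, and QKI-202 reaches 4797 bases further at the other. QKI makes proteins with different tails that stay in the nucleus or move to the cytoplasm; which of them each entry encodes was not analysed here. QKI-202 stood at 51.4, 61.6 and 229.5 FPKM in the calves and at 68.5, 66.5 and 66.3 in the bulls. QKI-201 had 10.8, 9.78 and 159 in the calves and 5.60, 6.82 and 6.36 in the bulls, so that every bull lay below every calf. The share of QKI-201 in the summed FPKM of both entries was 17.3%, 13.7% and 41.0% in the calves and 7.56%, 9.30% and 8.76% in the bulls. By an exact two-sided permutation test, the mean share was 15.5 percentage points lower in bulls (p = 0.1, the smallest that 3 animals against 3 allow). Without calf 3, it was 6.97 percentage points lower (p = 0.1 by the same exact test, again the smallest possible). With any 1 bull left out, the difference lay between −15.8 and −15.0 percentage points. Each of these gave p = 0.3 by the same exact test, where 0.1 is the smallest possible. A share does not depend on the scaling of a library. Groups that did not overlap were common, however: among 16379 transcripts tested in genes with at least 2 entries, the shares did not overlap for 45.5%, and they were lower in every bull for 20.8%. Without calf 3, over 17037 transcripts, these were 57.7% and 27.5%. Neither entry was called. They differed by −1.91 for QKI-201 (standard error 1.06, adjusted p = 0.178) and −0.42 for QKI-202 (standard error 0.57, adjusted p = 0.568). Without calf 3, these were −0.64 (adjusted p = 0.00913) and 0.25 (adjusted p = 0.0866), with opposite signs and both under the size needed for a call.

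MBNL1, a muscleblind protein that controls splicing during development and can bind the introns of its own gene, differed between calf 1 and calf 2. Its gene (ENSBTAG00000004564, chromosome 1, 115303718 to 115524968) stood at 10.8, 21.5 and 20.5 FPKM in the calves and at 10.5, 12.1 and 12.3 in the bulls. Calf 1 lay among the bulls, while calf 2 and calf 3 lay above them. MBNL1 differed by −0.51 (standard error 0.28, adjusted p = 0.175) and −0.37 (standard error 0.27, adjusted p = 0.250) without calf 3. It was called lower under 2 of the 14 alternatives, with −1.10 (adjusted p = 0.0128) when upper quartiles were made equal and −1.09 (adjusted p = 0.0162) after quantile normalization. Its ratio to another gene was lower in every bull for 44.2% and higher for 10.7% (51.4% and 18.1% without calf 3). The entry ENSBTAT00000073260, the most abundant of this gene in all 6 libraries, spread most among the calves, with 2.24, 14.1 and 13.0 FPKM in the calves and 6.86, 8.56 and 8.32 in the bulls (log2 fold change 0.01, adjusted p = 0.990, and 0.35, adjusted p = 0.656, without calf 3). The other 3 transcripts tested lay between 1.29 and 2.22 FPKM in the calves and between 0.844 and 1.35 in the bulls. Each of these was lower in every bull than in every calf, with log2 fold changes from −0.42 to −0.28 and adjusted p between 0.0587 and 0.0882. Without calf 3 these ran from −0.47 to −0.25, with adjusted p between 0.0259 and 0.114, and none was called. Of the 10 entries of this gene, 6 were too low to be tested, and the assignment of reads among so many overlapping entries is uncertain.

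HNRNPL, which binds CA-rich RNA and is known to favour some loops, was nearly level in FPKM as deposited. Its gene (ENSBTAG00000001055, chromosome 18, 48557658 to 48569498) stood at 47.4, 48.4 and 42.0 FPKM in the calves and at 40.0, 46.9 and 45.6 in the bulls, so the groups overlapped. HNRNPL differed by −0.06 (standard error 0.15, adjusted p = 0.765), and −0.12 (standard error 0.11, adjusted p = 0.344) without calf 3. Relative to the median of all genes tested it was −0.49. It was −0.68 (adjusted p = 0.00980) when upper quartiles were made equal and −0.84 (adjusted p = 0.00525) after quantile normalization, still under the size needed for a call. The ratio of DHX9 to HNRNPL was 0.855 to 1.06 in the calves and 0.880 to 0.957 in the bulls, so these 2 genes moved little against each other.

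ESRP1, a splicing factor of epithelial cells, was near the floor of the table. Its gene (ENSBTAG00000021838, chromosome 14, 69602149 to 69660461) stood at 0.946 and 1.18 FPKM in calf 1 and calf 2 and at 0.430, 0.728 and 0.732 in the bulls, and it was listed at 0 in calf 3. It did not pass the filter. On the log2(FPKM + 1) scale, bulls and calves differed by 0.00318 (p = 1, two-sided exact permutation test). Without calf 3, the bulls lay 0.34 lower (p = 0.1 by the same exact test, the smallest possible with 3 animals against 2). The 7 epithelial genes examined summed to 12.4 to 25.1 FPKM in calf 1 and calf 2, 2.04 in calf 3 and 98.7 to 113 in the bulls. EPCAM alone made 84.02 to 102 FPKM of the sum in the bulls, against 4.36 and 5.96 in calf 1 and calf 2. KRT19 went the other way, at 16.3 and 2.20 in calf 1 and calf 2 and 0.412 to 0.742 in the bulls, and KRT18 and CLDN4 overlapped between the bulls and these calves. KRT8, KRT19, CLDN4 and GRHL2 were listed at 0 in calf 3.

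ILF2 encodes NF45, a subunit of nuclear complexes that bind double-stranded RNA. Its gene (ENSBTAG00000012471, chromosome 3, 16711945 to 16723007) stood at 42.2, 46.0 and 21.9 FPKM in the calves and at 75.98, 83.9 and 76.4 in the bulls. Every bull lay above every calf. With all libraries it differed by 1.15 on the log2 scale (standard error 0.30, adjusted p = 0.0186). Without calf 3, the lowest of the calves, it was 0.82 (standard error 0.10, adjusted p = 0.000472), under the size needed for a call. When upper quartiles were made equal it was 0.52 (adjusted p = 0.199). After quantile normalization without calf 3, it was 0.01 (adjusted p = 0.909). In all, the call was kept under 5 of the 14 alternatives. The ratio to another gene was higher in every bull for 51.5% and lower for 18.3% (53.1% and 33.9% without calf 3). ILF2 ranked above 94.6% and 94.8% of the genes tested in calf 1 and calf 2 and above 94.5% to 95.1% in the bulls, and above 86.3% in calf 3. Against DHX9, the ratio of ILF2 was 0.953, 0.894 and 0.611 in the calves and 1.99, 1.92 and 1.90 in the bulls, so it was higher in every bull whatever the scaling. Of its 2 transcripts, ILF2-201 was called higher (log2 fold change 1.197, adjusted p = 0.0204). Without calf 3 it was 0.85 (adjusted p = 0.000732) and not called. ILF2-202 had 1.42 to 3.24 FPKM in all libraries and overlapped between the groups (log2 fold change 0.11, adjusted p = 0.738, and 0.0757, adjusted p = 0.825, without calf 3).

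The ratios within a library set these genes against each other without regard to scaling; the pairs were chosen after their values were seen, and 7 of the 16 computed overlapped between the groups. The ratio of ADAR to DHX9 was 0.403, 0.436 and 0.458 in the calves and 0.180, 0.145 and 0.194 in the bulls. The ratio of ADAR to HNRNPL was 0.376, 0.463 and 0.392 in the calves and 0.172, 0.135 and 0.171 in the bulls. Both were lower in every bull, with calf 3 close to the other calves. The ratio of ILF2 to HNRNPL was 0.890, 0.949 and 0.523 in the calves and 1.90, 1.79 and 1.68 in the bulls. The ratio of ADAR to QKI was 0.287 and 0.314 in calf 1 and calf 2 and 0.0865 to 0.107 in the bulls, but 0.0423 in calf 3, so that the groups overlapped with that library.

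**Figure D3:**
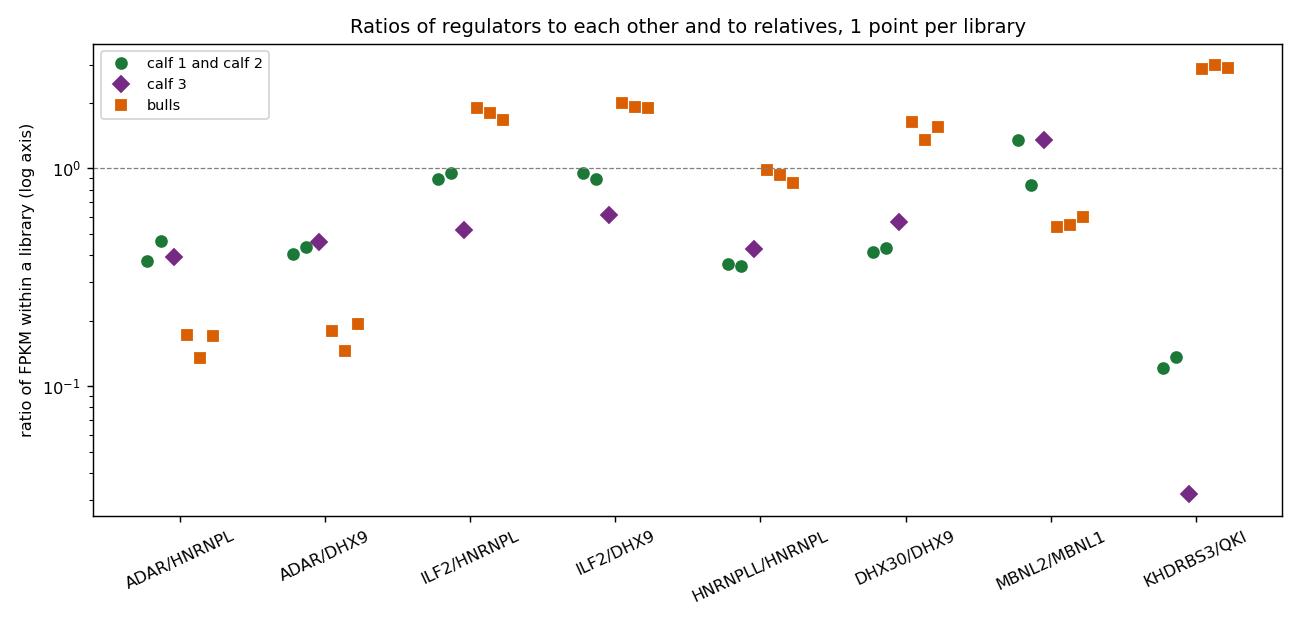
Ratio of the FPKM of 2 genes within each library (vertical axis, log scale) for 8 pairs, 1 point per library; circles are calf 1 and calf 2, diamonds calf 3 and squares bulls, and the dashed line marks equal FPKM. The pairs drawn were picked from 16 computed because their groups do not overlap (7 of the 16 overlap), for example 0.135 to 0.172 against 0.376 to 0.463 for ADAR to HNRNPL.

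Relatives of these genes include several that were called. Of the 16 relatives listed, 15 were tested and 7 were called higher and 1 lower in bulls. Without calf 3, 9 were called higher and 1 lower. The background is 35.7% higher and 9.61% lower with all libraries, and 37.9% and 13.6% without calf 3. Their median log2 fold change was 0.96, and the median of all genes was 0.43. After quantile normalization 5 were called higher and 1 lower, against 21.1% and 25.1% of all genes.

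Among the relatives of QKI, KHDRBS3, another STAR protein that controls splicing, stood at 7.51, 9.77 and 12.4 FPKM in the calves and at 213, 218 and 211 in the bulls. It differed by 4.33 on the log2 scale (standard error 0.20, adjusted p = 1.90e-05), and by 4.49 without calf 3, and was called under every one of its 12 alternatives. The ratio of KHDRBS3 to QKI was 0.121, 0.137 and 0.0319 in the calves and 2.87 to 2.97 in the bulls, so KHDRBS3 was the more abundant of the pair in the bulls and the less abundant in the calves. KHDRBS1 (0.04, adjusted p = 0.822), KHDRBS2 (0.67, adjusted p = 0.1502) and the branch point protein SF1 (0.34, adjusted p = 0.104) were not called.

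The relatives of ADAR and ADARB1 include ADAD1 and ADAD2, proteins of germ cells with a deaminase domain. ADAD1 had 5.92 and 7.99 FPKM in calf 1 and calf 2 and 304, 337 and 284 in the bulls, and it was listed at 0 in calf 3. ADAD2 had 4.76 and 4.09 in calf 1 and calf 2, 37.6 to 43.1 in the bulls, and was likewise listed at 0 in calf 3. Their log2 fold changes were 6.28 and 3.77 (adjusted p = 0.00112 and 0.00431), and 5.29 and 2.96 without calf 3. ADARB2, a brain protein without known editing activity, was at 0.0869 and 0.0846 FPKM in calf 1 and calf 2, 5.20 in calf 3 and 1.397 to 4.18 in the bulls. It was not called with all libraries (0.96, adjusted p = 0.316) but was without calf 3 (1.80, adjusted p = 0.00292). The filter used all libraries in both fits, and ADARB2 passed it only through the bulls and calf 3. Among the libraries of the second fit, only the bulls reached 1 FPKM, so its call is no independent support for a difference.

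Of the muscleblind genes, MBNL2 stood at 14.6, 17.9 and 27.6 FPKM in the calves and at 5.69, 6.65 and 7.37 in the bulls. With −1.44 on the log2 scale (adjusted p = 0.00436), and −1.19 without calf 3, it was called lower under each of the 12 alternatives. The ratio of MBNL2 to MBNL1 was 1.35, 0.836 and 1.35 in the calves and 0.541 to 0.601 in the bulls. MBNL3 ranged from 1.17 FPKM in calf 3 to 22.8 in calf 2 and was not called (0.64, adjusted p = 0.547), with −0.30 without calf 3.

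HNRNPLL, the closest relative of HNRNPL, had 17.3, 17.3 and 17.9 FPKM in the calves and 39.1, 43.6 and 38.9 in the bulls (log2 fold change 1.17, adjusted p = 0.000574, and 1.18 without calf 3). Its ratio to HNRNPL was 0.358 to 0.426 in the calves and 0.854 to 0.979 in the bulls. DHX30, a helicase related to DHX9, was called higher as well (1.55, adjusted p = 0.000230, and 1.56 without calf 3), and its ratio to DHX9 was 0.416 to 0.570 in the calves and 1.35 to 1.63 in the bulls. DHX36, which unwinds four-stranded RNA, was not called with all libraries (0.77, adjusted p = 0.0499) but was without calf 3 (1.04, adjusted p = 0.000402). HNRNPLL and DHX30 lost their calls when upper quartiles were made equal and after quantile normalization.

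Among the relatives of ILF2, STRBP, a double-stranded RNA binding protein named after spermatids, had 16.9, 19.1 and 22.5 FPKM in the calves and 77.0, 70.3 and 66.7 in the bulls. Its log2 fold change was 1.83 (adjusted p = 0.000223), and 1.93 without calf 3, and it was called under each of the 12 alternatives. ZFR2 was called higher (2.47, adjusted p = 0.00307, and 2.94 without calf 3), with 1.03 to 4.68 FPKM in the calves and 14.4 to 16.1 in the bulls, while ZFR was not (0.43, adjusted p = 0.0830). ESRP2, the relative of ESRP1, was at 0.0875 to 0.248 FPKM in the calves and 0.665 to 0.968 in the bulls and was not tested. Beside these values, the 6 spermatocyte genes summed to 16.2 to 28.9 FPKM in the calves and 346 to 416 in the bulls, and the part of these cells in the levels of the relatives was not tested.

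Other genes act in the formation, handling or sensing of circRNAs. Over 5 lists, relatives included, 52 genes were tested, of which 11 were called higher and 3 lower in bulls, with a median log2 fold change of 0.0512. Over all genes tested, 35.7% were called higher and 9.61% lower, with a median of 0.43. Without calf 3, 13 were called higher and 6 lower, against 37.9% and 13.6% of all genes. After quantile normalization 6 were called higher and 11 lower, against 21.1% and 25.1% of all genes. With upper quartiles made equal these counts were 6 and 8, against 27.8% and 20.3%. Of 10 other regulators of circRNA formation, 1 was called higher and 0 lower (35.7% and 9.61% of all genes). After quantile normalization 3 of them were called lower (25.1% of all genes), SRSF1, SRSF6 and TNRC6A. With upper quartiles made equal 2 were called lower (20.3% of all genes), SRSF6 and TNRC6A. All of these were named after their values were seen. The gene called higher was NOVA2, a splicing factor of neurons, which had 0.386 and 0.486 FPKM in calf 1 and calf 2, 5.35 in calf 3 and 8.87, 24.2 and 15.4 in the bulls (log2 fold change 2.76, adjusted p = 0.0153, and 3.48 without calf 3). NOVA2 lost its call without bull 2 or without bull 3. It passed the filter only through the bulls and calf 3, with calf 1 and calf 2 under 1 FPKM. SRSF6, an SR protein singled out after its values were seen, had 64.2, 60.9 and 48.7 FPKM in the calves and 27.0, 32.0 and 29.7 in the bulls. Its log2 fold change was −0.94 (adjusted p = 0.00414), under the size for a call, and −1.06 (adjusted p = 0.000230) without calf 3. The other 8 were called neither with all libraries nor without calf 3 in FPKM as deposited.

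Of 10 core components of the spliceosome, 9 were tested, and 1 was called higher and 0 lower (35.7% and 9.61% of all genes). After quantile normalization 0 were called higher and 3 lower, against 21.1% and 25.1% of all genes. With upper quartiles made equal these counts were 0 and 2, against 27.8% and 20.3%. The gene called higher was SF3A1, a subunit of the U2 particle, with 9.11, 10.998 and 10.2 FPKM in the calves and 31.4, 25.8 and 32.2 in the bulls (log2 fold change 1.47, adjusted p = 0.000503, and 1.48 without calf 3). It was not called under either of the other scalings. Of 13 genes of circRNA export, modification and breakdown, 2 were called higher and 1 lower (35.7% and 9.61% of all genes). Under either other scaling 0 were called higher and 1 lower. Of all genes, 21.1% and 25.1% were after quantile normalization, and 27.8% and 20.3% with upper quartiles made equal. DDX39A and DDX39B, paralogous helicases known to carry circRNAs out of the nucleus by their length, were called in opposite directions. DDX39A had 12.8, 15.1 and 2.90 FPKM in the calves and 42.8, 44.4 and 41.0 in the bulls (log2 fold change 2.20, adjusted p = 0.0155). DDX39B had 21.1, 20.1 and 23.3 in the calves and 8.50, 7.96 and 9.24 in the bulls (−1.23, adjusted p = 0.000687, and −1.18 without calf 3). DDX39B kept its call under each of the 12 alternatives, while DDX39A lost it under both scalings and without any 1 of the bulls; without calf 3 it was 1.55. UPF1, a helicase of RNA decay named after its values were seen, was called higher (1.37, adjusted p = 0.000636, and 1.29 without calf 3), though not under either scaling.

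Of the 8 sensors of double-stranded RNA listed, 7 were found and 6 tested, and EIF2AK2 was called lower in bulls (9.61% of all genes were). Without calf 3, 3 of the 6 were called lower (13.6% of all genes). With all libraries, 3 were called lower after quantile normalization (25.1% of all genes) and 2 with upper quartiles made equal (20.3%). EIF2AK2 encodes PKR, a kinase that is activated by paired RNA, is induced by interferon, and is known to be bound by circRNAs; editing by ADAR is known to keep cellular RNA from activating it. It had 12.7, 9.92 and 11.98 FPKM in the calves and 1.88, 1.84 and 2.04 in the bulls, which is −2.097 on the log2 scale (standard error 0.17, adjusted p = 0.000154), and −2.07 without calf 3. It kept its call under each of the 12 alternatives, between −2.95 and −2.03. The oligoadenylate synthetase genes OAS1X and OAS1Y, named after their values were seen, were not called with all libraries (−0.93 and −1.34, adjusted p = 0.0216 and 0.124). Without calf 3 they were called lower (−1.16 and −2.08, adjusted p = 0.00116 and 0.000128). OAS1Y had 15.3 and 11.9 FPKM in calf 1 and calf 2, 2.08 in calf 3 and 2.099 to 2.99 in the bulls. These OAS1 genes are close copies, so reads may have been split between them. DDX58, IFIH1 and MAVS were not called. The sum of 5 macrophage genes was 101 to 140 FPKM in calf 1 and calf 2, 54.4 in calf 3 and 24.8 to 29.9 in the bulls. In calf 3, CSF1R made 30.7 FPKM of the sum, above calf 1 (10.7) and calf 2 (5.51), while the other macrophage genes lay below both. The part of macrophages in the levels of the sensors was not tested.

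**Figure D4:**
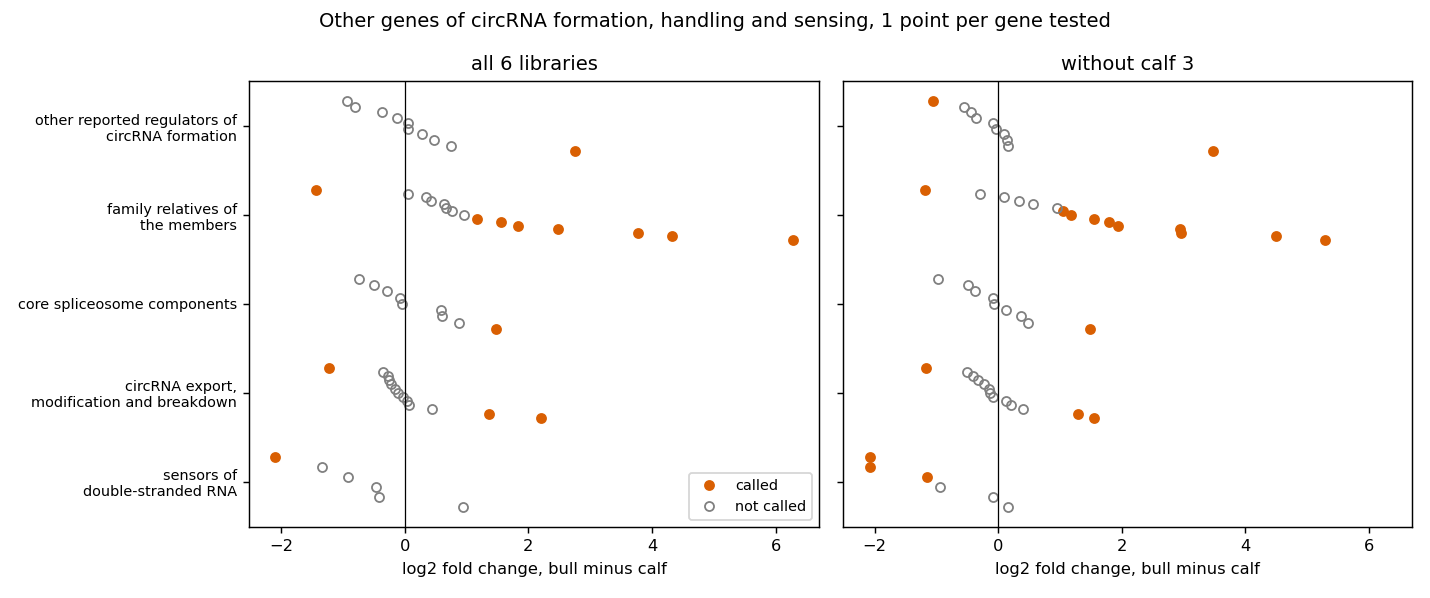
Log2 fold change of bulls against calves (horizontal axis, log2(FPKM + 1) scale) for the tested genes of 5 lists (vertical axis), with all 6 libraries on the left and without calf 3 on the right; filled points were called and open points were not. The relatives lie furthest to the right, up to 6.28 for ADAD1, and the double-stranded RNA sensors reach −2.097 for EIF2AK2.

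The genes most like each regulator were found by the root mean square difference of their centred log2(FPKM + 1) values over the 6 libraries, among 13746 other genes with a symbol. They were USP31 and KAT2B for QKI (0.0536 and 0.0760), GRHPR and WDR6 for ADAR (0.0358 and 0.0632), and SIPA1L2 and PLEKHA1 for ADARB1 (0.0807 and 0.0824). ERCC3 and RBBP5 were closest to DHX9 (0.0307 and 0.0468), ECSCR and KDM2A to HNRNPL (0.0397 and 0.0504), GADD45GIP1 and MYO10 to MBNL1 (0.0544 and 0.0962), and AP3S1 and ZCWPW1 to ILF2 (0.0251 and 0.0306). Calf 3 was included, and likeness was not computed without it. QKI and ADARB1 were highest in calf 3, and so were the genes named for them, so these matches rest largely on that library. KAT2B, for example, had 12.3 and 14.0 FPKM in calf 1 and calf 2, 80.2 in calf 3 and 12.8 to 13.9 in the bulls. GRHPR had 9.39 to 12.5 in the calves and 3.29 to 4.15 in the bulls. The number of genes within 0.1 of a regulator was 62 for DHX9, 60 for HNRNPL and 25 for ILF2, and 2 to 8 for the other 4 genes tested.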

How the data were processed

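Total RNA of the testes was depleted of ribosomal RNA and made into strand-specific libraries. According to the Methods, the authors took out low-quality and ribosomal reads (the latter with Bowtie2), aligned to the genome in TopHat2 and built transcripts in StringTie. The authors deposited FPKM values of genes and of transcripts per library, with no counts, and the tool that made these FPKM values is not given in the sources used here (Cuffdiff is named for circRNA levels). The FPKM of each regulator equalled the sum over its transcript entries, antisense entries included. The summed FPKM ran from 587066 (calf 3) to 1098715 (calf 2), and genes at or above 1 FPKM numbered 14325 to 14992 in calves and 17860 to 18982 in bulls. Among genes with an FPKM below 0.05, at most 3.44% lay at a commonest ratio to calf 1, so reads could not be recovered, and the counting error of single values is unknown. The Methods name UMD3.1.1. The loci of all 8 regulators overlap the RefSeq loci of the same symbols on ARS-UCD2.0, and positions are those of the tables. Protein and promoter sequences were not used here.

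Values were transformed to log2(FPKM + 1), keeping features that reached 1 FPKM in 3 or more of 6 libraries. Bulls were compared with calves by limma 3.58.1 in R 4.3.3 (empirical Bayes trend, two-sided, Benjamini-Hochberg adjustment over all features tested). The fit had first been run on simulated data with independent noise and no library like calf 3. A set recovery of changed features was required there only for the spread without calf 3, so it does not vouch for calls with all libraries. Single values were tested by exact permutation (20 labelings). Each library is a separate animal per the labels, so p-values measure the spread between libraries. With all 6 libraries this spread includes calf 3, which lacked most of the Sertoli and Leydig cell genes examined. It therefore cannot be taken as the spread between testes of calves alone. Pairs of genes set in ratio, and SRSF6, UPF1, OAS1X, OAS1Y and the entry DHX9-AS1, were chosen after their values were seen. Figures were drawn with matplotlib 3.10.9. The named items were all 8 regulators, 2 genes of the most similar pattern for each, the called extremes of each list, and all relatives listed. Alternatives were another pseudocount (0.1), no filter, quantile normalization, upper quartile scaling, a replicate block, array weights and leaving out each library. The regulators, lists and tests were chosen with earlier results of these data known. Some genes of the pathway lists are not reported here.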

Additional observations from a re-analysis of the deposited data

How the results depend on the processing

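Counts of calls depended on calf 3 and on the scaling of the libraries. Over all genes tested, 35.7% were called higher and 9.61% lower in FPKM as deposited. These shares were 21.1% and 25.1% after quantile normalization, and 27.8% and 20.3% with upper quartile scaling. Among the 7 regulators tested, 2 were called, 1 higher (ILF2) and 1 lower (ADAR). With 1 library left out in turn, 1 to 2 were called, 0 to 1 higher and 1 lower. Quantile normalization gave 0 higher and 2 lower, ADAR and MBNL1 with all libraries, and ADAR and DHX9 without calf 3. Upper quartile scaling gave 0 higher and 2 lower, and without calf 3 it gave 1 in all and 0 higher. Array weights gave 1 in all and 0 higher. Shares over all genes are not given here for array weights, for either scaling without calf 3, or with a library other than calf 3 left out. Counts under those settings cannot be set against all genes. ILF2 was not called without calf 3 or without any 1 of the bulls. Of the 14 transcripts tested, 2 were called, 1 in each direction. With libraries left out, 1 to 2 were called, 0 to 1 higher and 1 to 2 lower. Quantile normalization gave 6, 0 higher and 6 lower, upper quartile scaling 0 higher and 3 lower, no filter 1 with 0 higher, array weights 1 with 0 higher, and a pseudocount of 0.1 gave 2 lower. Of all transcripts, 34.8% were called higher and 9.37% lower in FPKM as deposited. The shares under the other settings are not given here, so these counts cannot be set against all transcripts. Of the genes in the 5 lists, 14 were called, 11 higher and 3 lower, and 12 to 19, 9 to 13 and 3 to 6 with libraries left out. Quantile normalization gave 6 higher and 11 lower, upper quartile scaling 6 and 8, and array weights 6 lower. For array weights, and with a library other than calf 3 left out, these counts too cannot be set against all genes.

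Signs that changed belonged to features that were not called. With array weights, QKI had 0.0888, QKI-202 0.22, USP31 0.00195, KDM2A −0.0401 and MBNL3 −0.20. Quantile normalization gave −0.70 for KHDRBS1, −0.13 for KHDRBS2, −0.40 for SF1, −0.00725 for MBNL3, −0.31 for ZFR, −0.56 for KDM2A, −0.57 for ENSBTAT00000073260 and −0.53 for ILF2-202. Upper quartile scaling gave −0.57 for KHDRBS1, −0.28 for SF1, −0.19 for ZFR, −0.58 for KDM2A, −0.56 for ENSBTAT00000073260 and −0.34 for ILF2-202. With libraries left out, the values ran from −1.18 to 0.14 for QKI, −0.82 to 0.25 for QKI-202, −0.23 to 0.0282 for DHX9, −0.12 to 0.0116 for HNRNPL and its transcript, −0.0583 to 0.10 for KHDRBS1, −0.30 to 1.43 for MBNL3, −1.24 to 0.0474 for USP31, −1.30 to 0.00928 for KAT2B, −0.25 to 0.0286 for RBBP5, −0.0551 to 0.0534 for KDM2A, −0.71 to 0.40 for ENSBTAT00000073260, −1.48 to 0.19 for an assembled transcript of ADARB1 (TCONS_00009060) and −0.0717 to 0.33 for ILF2-202. ESRP1 ran from −0.34 to 0.22, and the difference in the share of QKI-201 from −20.6 to −6.97 percentage points. The causes were not tested.

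Calves and bulls share replicate numbers that mark no common animal, and deviations of same-numbered libraries correlated at 0.0246 to 0.0341, all under 0.1. Each library correlated best with the one of its own number, though calf 1 with bull 2 came close at 0.0221. With so few libraries, these values cannot decide whether the numbers pair the libraries, and the labels name no pairing. With the replicate number as a block in the fit, 2 regulators, 1 higher and 1 lower, and 2 of their transcripts were called, so the block changed no call of theirs. FPKM values without counts limit what can be said of low genes such as ESRP1.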
